A study of Mus musculus with 6 samples.

Results

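The 10 genes B2m, Tap1, Tap2, Tapbp, Psmb8, Psmb9, Psmb10, Nlrc5, Ciita and Cd74 carry much of the machinery that makes peptides and presents them on major histocompatibility complex (MHC) molecules. They were listed by name out of 21924 protein-coding gene symbols, or 55341 symbols of all kinds, in the GENCODE annotation of the mouse genome build GRCm38/mm10. The list was chosen by earlier results of these same peak files, with the promoter region shared by Psmb9 and Tap1, and Psmb8, singled out. The peak values of the 10 genes are therefore given as a description, with no test.

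Trimethylation of histone H3 at lysine 4 (H3K4me3) and at lysine 27 (H3K27me3) was measured by chromatin immunoprecipitation and sequencing (ChIP-seq) in colonic organoids, which are epithelial cultures grown from the colon of C57BL/6 mice. Untreated organoids (wt) were compared with organoids kept in 40 ng/ml tumor necrosis factor alpha for 3 weeks (wt+TNFα), to ask which promoters changed their histone marks under an inflammatory cytokine. Each condition had 1 H3K4me3 library, 1 H3K27me3 library and 1 input, so no difference between the conditions has a replicate check, and values stand without errors or p-values. The labels do not say how many mice or cultures stand behind a library. The labels plan 40000000 reads for each input and H3K4me3 library and 60000000 for each H3K27me3 library. The reads behind a peak are unknown here, and the study's reporting summary gives more reads to wt+TNFα than to wt for H3K4me3 and the input, and nearly equal reads for H3K27me3.

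Presentation on MHC class I starts at the proteasome, which cuts cytosolic proteins into peptides. Psmb8, Psmb9 and Psmb10 encode the catalytic subunits of the immunoproteasome and take the places of Psmb5, Psmb6 and Psmb7 of the constitutive proteasome. Tap1 and Tap2 form the transporter that carries peptides into the endoplasmic reticulum, Tapbp encodes tapasin, which holds the transporter and the class I heavy chain together during loading, and B2m encodes the light chain of class I. Nlrc5 is the transactivator of class I genes and Ciita that of class II genes, and Cd74 encodes the invariant chain that guards the class II groove. Class I genes are active in most nucleated cells and rise under interferons and TNFα, whereas class II genes are mostly silent in epithelial cells until interferon-γ is present. H3K4me3 is typical of active promoters, and H3K27me3 of genes held silent by Polycomb complexes.

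Promoter sequences were taken from RefSeq (GRCm38.p6), 250 bases before to 50 bases after the RefSeq start, for 6 of the 10 genes. Of these, 4 are printed 5′ to 3′ because the peaks over them differ most between the conditions or because a pair of genes shares them. Capitals mark matches on either strand to 5 short motifs: the interferon regulatory factor element core GAAANNGAA, the interferon-gamma activated site (GAS) TTCNNNGAA, the κB site core GGGNNTTTC, the CCAAT box, spelled as its name says, and the box rich in G and C that is bound by Sp1-type factors, GGGCGG (called GC box here). The windows are chr17:34197945-34198244 on the plus strand for Psmb8, chr17:34187306-34187605 on the plus strand for Tap1, chr2:122147437-122147736 on the plus strand for B2m and chr17:33919228-33919527 on the plus strand for Tapbp.
Psmb8: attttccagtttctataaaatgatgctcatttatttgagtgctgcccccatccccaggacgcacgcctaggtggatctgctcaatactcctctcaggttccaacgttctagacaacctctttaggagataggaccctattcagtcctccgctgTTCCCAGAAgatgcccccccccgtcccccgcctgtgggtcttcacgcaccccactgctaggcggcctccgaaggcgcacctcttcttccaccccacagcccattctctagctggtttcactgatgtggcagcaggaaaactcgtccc
Tap1, shared with Psmb9: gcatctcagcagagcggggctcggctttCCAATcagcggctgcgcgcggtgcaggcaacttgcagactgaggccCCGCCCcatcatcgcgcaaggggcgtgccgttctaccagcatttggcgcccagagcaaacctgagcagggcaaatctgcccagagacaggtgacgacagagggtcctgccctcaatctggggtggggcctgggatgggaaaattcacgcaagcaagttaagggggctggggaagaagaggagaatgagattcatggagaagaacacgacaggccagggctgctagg
B2m: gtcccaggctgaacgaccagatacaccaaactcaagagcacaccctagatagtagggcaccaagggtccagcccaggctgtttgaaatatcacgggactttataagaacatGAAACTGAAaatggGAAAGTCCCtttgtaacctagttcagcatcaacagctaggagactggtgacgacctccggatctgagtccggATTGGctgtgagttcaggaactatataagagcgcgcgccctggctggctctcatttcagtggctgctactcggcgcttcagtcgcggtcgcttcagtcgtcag
Tapbp: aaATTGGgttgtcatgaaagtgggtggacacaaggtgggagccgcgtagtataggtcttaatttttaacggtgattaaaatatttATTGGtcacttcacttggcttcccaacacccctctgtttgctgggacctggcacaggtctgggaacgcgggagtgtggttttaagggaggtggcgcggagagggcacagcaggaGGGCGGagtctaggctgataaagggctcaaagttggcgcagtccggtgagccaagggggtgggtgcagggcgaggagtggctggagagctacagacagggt

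The Psmb8 window held 1 motif match, a GAS element whose first base lies 97 bases before the RefSeq start, and all 300 bases of the window were under the wt+TNFα H3K4me3 peak and none under a wt H3K4me3 peak. The Tap1 window holds 275 bases of the Psmb9 window, which runs on the opposite strand, and all 300 of its bases were under H3K4me3 peaks in both conditions. It held a CCAAT box and a GC box. The B2m window held an interferon regulatory factor element core from base 139 before the start, a κB site core on the minus strand from base 125, and a CCAAT box from base 53. The wt H3K4me3 peak covered 139 of the 300 bases and the wt+TNFα peak 291, and the first 2 of these matches lay in the stretch covered only in wt+TNFα, with the CCAAT box under both peaks. The Tapbp window had 0 bases under the wt peak and 111 under the wt+TNFα peak, and its GC box, from base 51 before the start, lay in those 111 bases. Its 2 CCAAT boxes, from bases 248 and 165 before the start, lay outside the peaks of both conditions. No matches overlapped each other. Among 32851 RefSeq promoters of the same length, 8.56% held the interferon regulatory factor core, 8.30% the GAS element, 4.36% the κB core, 37.4% the CCAAT box and 35.7% the GC box. A match is a description of letters, not of a bound site. The Psmb10 window held no match to the 5 motifs. CpG dinucleotides numbered 17 for Psmb9, 15 for Tap1, 14 for B2m, 11 for Psmb8 and for Tapbp, and 3 for Psmb10, against a median of 7 over all these promoters.

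A promoter was taken as 1000 bp on each side of every annotated transcript start, and a mark was counted at a promoter when at least 1 bp lay under a called peak. In wt, 6 of the 10 genes (B2m, Tap1, Tap2, Tapbp, Psmb9 and Psmb10) had an H3K4me3 peak at the promoter, against 50.5% of protein-coding genes. In wt+TNFα, 8 of the 10 had one, against 51.2%, and the added genes were Psmb8 and Nlrc5. A promoter H3K4me3 peak in wt+TNFα alone was found at 1.49% of protein-coding genes, which is the background for those 2 genes. None of the 10 had one in wt alone, where the background is 0.743%. H3K27me3 peaks lay at the promoters of Psmb8, Nlrc5 and Ciita in wt (3 of 10, background 21.7%) and of Nlrc5 and Ciita in wt+TNFα (2 of 10, background 29.5%). Cd74 had no promoter peak in any of the 4 lists.

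**Figure D1:**
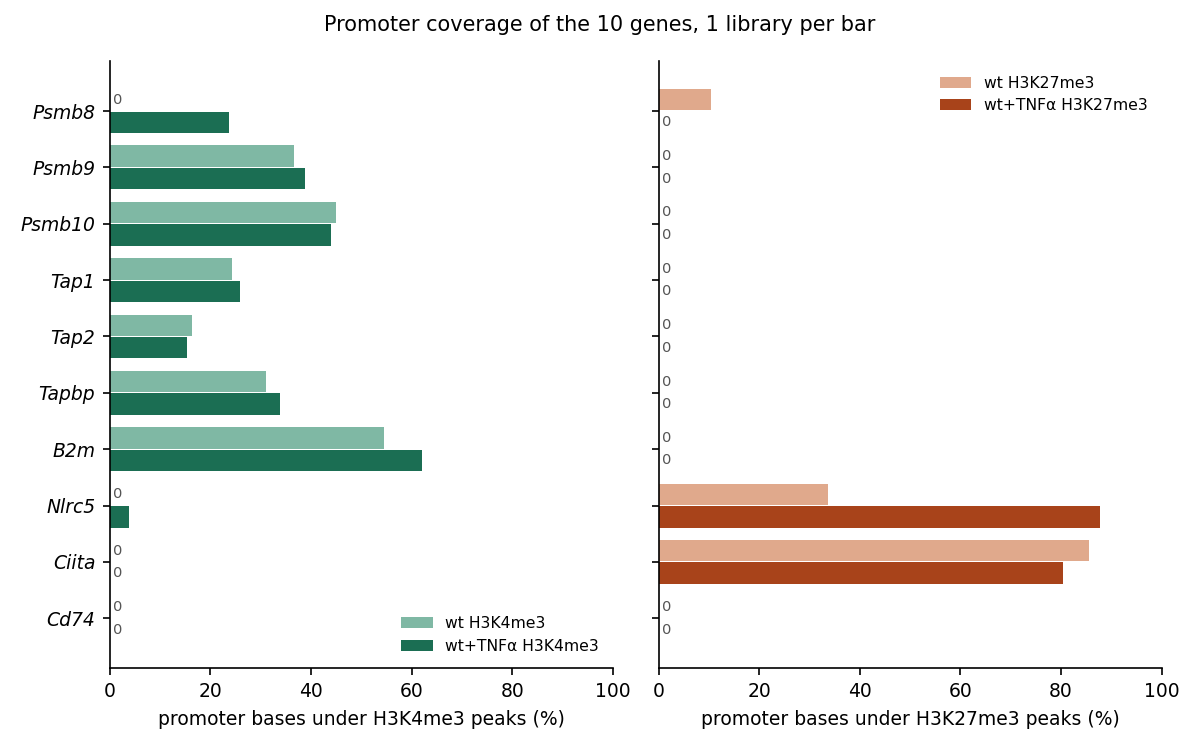
Share of promoter bases (percent, horizontal axes) under H3K4me3 peaks on the left and H3K27me3 peaks on the right for each of the 10 genes, with pale bars for wt and dark bars for wt+TNFα, 1 library per bar and 0 printed where no base was covered. Psmb8 and Nlrc5 show H3K4me3 in wt+TNFα alone, Psmb8 shows H3K27me3 in wt alone, and Cd74 shows none of the 4.

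Counted base by base, 6 genes had promoter bases under H3K4me3 in wt+TNFα that were not under it in wt (background 40.9%), namely B2m, Tap1, Tapbp, Psmb8, Psmb9 and Nlrc5. Tap2 and Psmb10 had bases of H3K4me3 in wt that were not covered in wt+TNFα (2 of 10, background 21.1%). For H3K27me3, Nlrc5 had such a gain (1 of 10, background 20.6%), and Psmb8 and Ciita had a loss (2 of 10, background 5.22%). These counts include small shifts of a peak edge as well as whole peaks, and the values of each gene follow.

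Psmb8, the immunoproteasome subunit that replaces Psmb5, exchanged a small H3K27me3 peak for an H3K4me3 peak. The gene (ENSMUSG00000024338.15) lies on the plus strand at chr17:34197721-34201454 with 6 annotated starts. In wt there was no H3K4me3 peak within 4930 bp of any of them. In wt+TNFα a peak of 862 bp lay at chr17:34197702-34198563, with a fold enrichment (the ratio of ChIP signal to the local input background, computed by the authors with MACS2) of 9.70 and a −log10 q of 40.1. It covered 4 of the 6 starts, 797 of its bases were exonic in at least 1 transcript, and its summit lay at base 34198123. The chromatin came from whole cultures, so a mark in more cells and more of the mark in each cell cannot be told apart.

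The wt H3K27me3 peak at Psmb8 was 376 bp long, at chr17:34198464-34198839, and lay over the start of a retained-intron transcript. Its fold enrichment was 1.97, above 13.0% of the wt H3K27me3 peaks, and its −log10 q 0.62, above 35.3% of them. In wt+TNFα the nearest H3K27me3 peak lay 16969 bp away. The wt H3K27me3 peak and the wt+TNFα H3K4me3 peak shared 100 bp. An H3K27me3 loss together with an H3K4me3 gain at the same promoter was found at 2.18% of protein-coding genes and, of the 10 genes, at Psmb8. With H3K27me3 peaks of −log10 q of at least 2 alone, Psmb8 has no wt H3K27me3 peak to lose.

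Among the 786 wt+TNFα H3K4me3 peaks that no wt H3K4me3 peak overlapped, the median fold enrichment was 6.74 and the median width 555 bp. The Psmb8 peak stood above 83.0% of them by fold enrichment and above 79.9% by width. Within all 11894 wt+TNFα H3K4me3 peaks it stood above 13.7%, so it was a strong peak among the new ones and a weak one in the list as a whole.

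Psmb9 and Tap1 are divergent neighbours whose transcripts overlap at their first exons, and both are read from 1 promoter region. Psmb9 (ENSMUSG00000096727.3, minus strand, chr17:34181987-34187764) encodes the immunoproteasome subunit that replaces Psmb6, and Tap1 (ENSMUSG00000037321.17, plus strand, chr17:34187553-34197225) encodes a chain of the peptide transporter. A single H3K4me3 peak covered all 212 bp between the Tap1 and Psmb9 gene starts in each condition. It measured 1728 bp in wt (chr17:34186684-34188411) and 1838 bp in wt+TNFα (chr17:34186638-34188475), a difference of 110 bp, of which 46 bp were added on the Psmb9 side and 64 bp on the Tap1 side. The fold enrichment was 20.5 in wt and 22.4 in wt+TNFα. Because enrichments were computed for each library separately, ranks within a list were compared instead: the peak stood above 39.2% of the wt list and 38.8% of the wt+TNFα list. The lists hold 11552 and 11894 peaks and differ in make-up, so a difference between 2 such ranks is a description of each list and not a measured change at the gene. No H3K27me3 peak touched this region, and the 110 bp are counted for both genes although they are the same bases.

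The genes Psmb9, Tap1, Psmb8 and Tap2 stand side by side over 34335 bp of the class II region of the MHC. H3K4me3 peaks covered 7.69% of this stretch in wt (2 peaks) and 10.3% in wt+TNFα (3 peaks), and the added peak was that of Psmb8. H3K27me3 covered 1.10% in wt, all of it the Psmb8 peak, and 0% in wt+TNFα. H3K27me3 came close on the Psmb9 side, where the nearest peak ended 1266 bp from the 3′ end of Psmb9 in wt and 1235 bp from it in wt+TNFα. That flanking peak was 1574 bp wide in wt and 2982 bp in wt+TNFα, so it was wider in wt+TNFα and its near edge lay in nearly the same place.

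**Figure D2:**
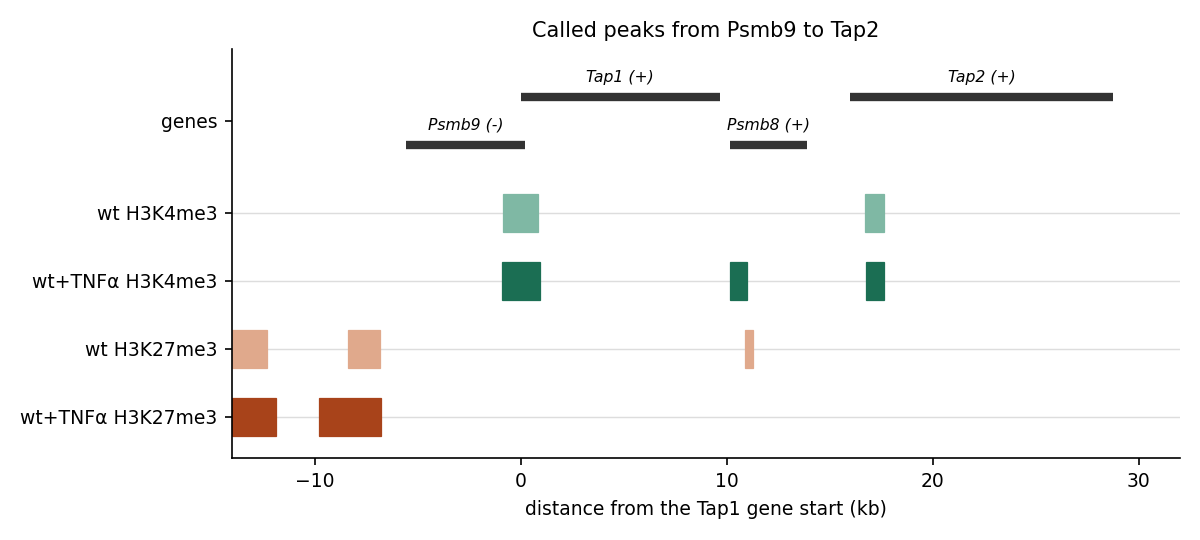
Called peaks of the 4 lists (boxes, 1 row per list) and the gene bodies (bars, strand in brackets) from Psmb9 to Tap2, with the distance from the Tap1 gene start in kb on the horizontal axis. The H3K4me3 peaks at Psmb9 and Tap1 and at Tap2 appear in both conditions, the Psmb8 H3K4me3 peak of 862 bp in wt+TNFα alone and the Psmb8 H3K27me3 peak of 376 bp in wt alone.

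Tap2, the other chain of the transporter, showed a slightly narrower H3K4me3 peak in wt+TNFα. The gene (ENSMUSG00000024339.12) lies at chr17:34203527-34216321 on the plus strand, and neither peak reached its first annotated start: the wt peak began 757 bp and the wt+TNFα peak 816 bp downstream of it. The peaks lay over the later starts of Tap2, where a start of the antisense gene Gm20496 is also within the promoter window. The wt peak was 914 bp wide (chr17:34204284-34205197) and the wt+TNFα peak 851 bp (chr17:34204343-34205193), 63 bp less. Its fold enrichment was 33.0 in wt, above 70.3% of that list, and 24.2 in wt+TNFα, above 43.3% of that list. Tap2 was the gene of the 10 whose H3K4me3 peak stood lower in its list in wt+TNFα by more than 1 percentage point. With the lists limited to peaks above their median −log10 q, only the wt peak was counted, and the loss was 914 bp.

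Tapbp, encoding tapasin, had 2 H3K4me3 peaks in each condition (ENSMUSG00000024308.15, plus strand, chr17:33915899-33929292). The first, at the upstream starts, also lies over a start of the protein-coding gene Zbtb22 and was 1000 bp in wt and 1021 bp in wt+TNFα. The second, at the later starts and overlapping the start of the antisense gene Gm19412, was 1323 bp in wt (chr17:33919543-33920865) and 1511 bp in wt+TNFα (chr17:33919417-33920927), with 126 of the 188 added bp on the upstream side. The second peak stood above 61.4% of the wt list by fold enrichment (29.1) and above 85.9% of the wt+TNFα list (41.9). The first stood above 65.3% and 71.4%. Of the H3K4me3 peaks called in both conditions at the 10 genes, the second Tapbp peak had the largest difference in width between the conditions and the highest rank in wt+TNFα.

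Psmb10, the immunoproteasome subunit that replaces Psmb7, kept an H3K4me3 peak of nearly the same extent (ENSMUSG00000031897.9, minus strand, chr8:105935735-105938444). The peak measured 1539 bp in wt (chr8:105936935-105938473) and 1502 bp in wt+TNFα (chr8:105936939-105938440), 37 bp less. The wt+TNFα peak ended 4 bp inside the gene, short of the start of Psmb10-201. By fold enrichment it stood above 45.4% of the wt list (22.9) and above 59.1% of the wt+TNFα list (30.4). With the lists limited to peaks above their median −log10 q, the wt peak was not counted and the wt+TNFα peak was, which turned the small loss into a gain. No H3K27me3 peak lay within 12043 bp of the gene in wt or 9754 bp in wt+TNFα.

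B2m, the class I light chain (ENSMUSG00000060802.8, plus strand, chr2:122147686-122153083), had a strong H3K4me3 peak in both conditions. It spanned 1411 bp in wt (chr2:122147598-122149008) and 1564 bp in wt+TNFα (chr2:122147446-122149009). The downstream edges differed by 1 bp and the upstream edges by 152 bp, so the peak reached 88 bp upstream of the gene in wt and 240 bp in wt+TNFα. The added bases hold the interferon regulatory factor core and the κB core printed above. The fold enrichment was 36.7 in wt, above 78.0% of its list, and 38.8 in wt+TNFα, above 79.7%.

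**Figure D3:**
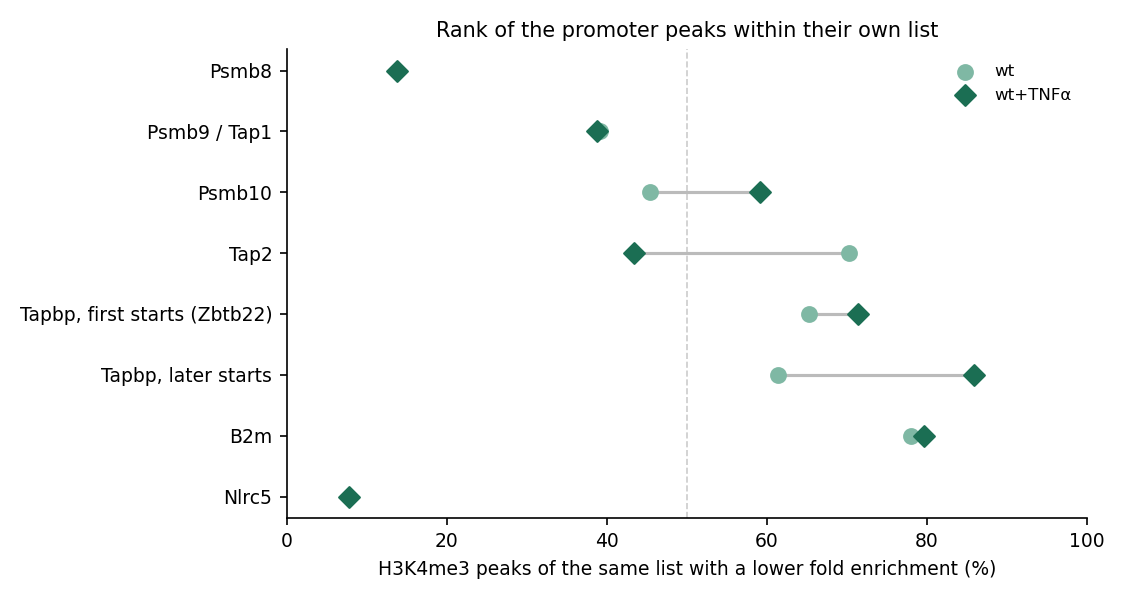
Share of the H3K4me3 peaks of the same list with a lower fold enrichment (percent, horizontal axis) for each promoter peak of the 10 genes, with circles for wt, diamonds for wt+TNFα, a line joining both and a dashed line at 50%. Psmb8 and Nlrc5 have a wt+TNFα peak alone and stand lowest, Tap2 stands at 70.3% of the wt list and 43.3% of the wt+TNFα list, and the later Tapbp peak at 61.4% and 85.9%, in lists of different length and make-up.

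H3K4me3 coverage as a whole was slightly larger in wt+TNFα, so the edge shifts were set beside those of all genes. The length under H3K4me3 peaks was 1.09 times as large in wt+TNFα as in wt. Among 10903 protein-coding genes with promoter H3K4me3 in both conditions, the median difference in covered bases, wt+TNFα minus wt, was 63 bp, with quartiles of -1 and 154 bp. The 6 genes of this set had a median of 110 bp and ran from -63 bp at Tap2 to 209 bp at Tapbp. The Tapbp value is a sum over 2 peaks and 9 starts, and with 1 start per gene its gain was 11 bp. Tapbp stood above 83.7% of the genes, B2m above 74.3%, Tap1 and Psmb9 above 63.9%, Psmb10 above 15.5% and Tap2 above 10.8%. B2m, Tap1, Psmb9 and Tapbp thus lay above the median of all genes, and Tap2 and Psmb10 below the lower quartile.

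**Figure D4:**
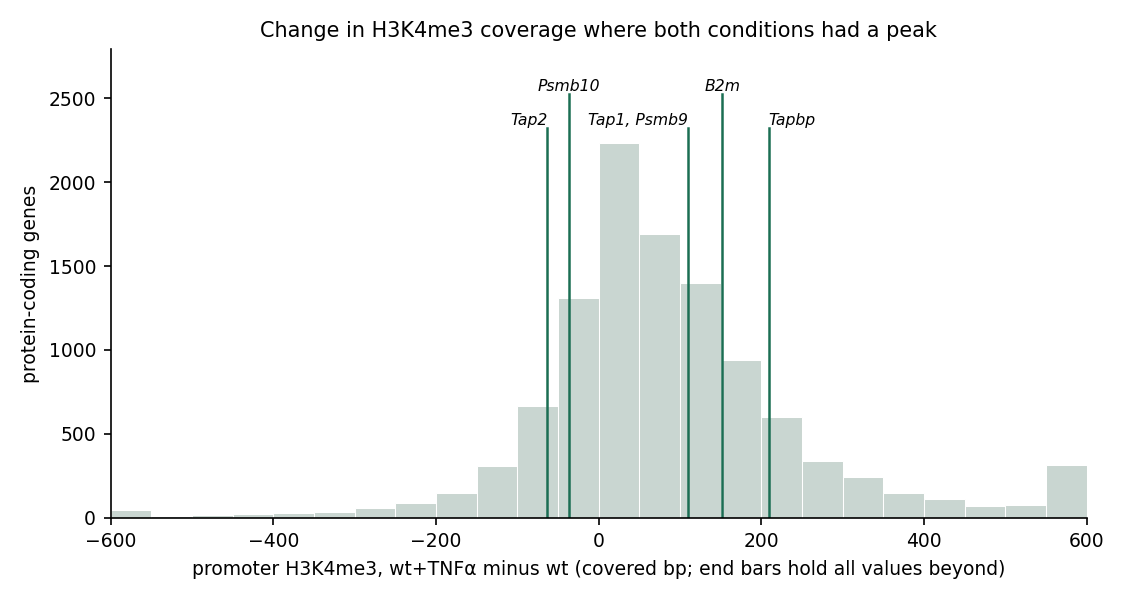
Number of protein-coding genes (vertical axis) by the difference in promoter bases under H3K4me3 peaks, wt+TNFα minus wt (horizontal axis, bp, end bars holding all values beyond), for the 10903 genes with a peak in both conditions. Lines mark Tap2 at -63 bp, Psmb10 at -37 bp, Tap1 and Psmb9 at 110 bp, B2m at 152 bp and Tapbp at 209 bp.

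Nlrc5, the class I transactivator (ENSMUSG00000074151.13, plus strand, chr8:94434356-94527272), was the gene of the 10 that carried both marks on the same bases. In wt it had no H3K4me3 peak at the promoter. In wt+TNFα a peak of 462 bp lay over its first starts (chr8:94434095-94434556), with a fold enrichment of 7.30 and a −log10 q of 21.0. This peak stood above 59.9% of the wt+TNFα-only peaks by fold enrichment and above 29.9% by width, and above 7.72% of the whole wt+TNFα list by fold enrichment. The long non-coding gene 9330175E14Rik has a start under the same peak, so the mark cannot be assigned to one of them.

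H3K27me3 was already present at Nlrc5 in wt and covered more of it in wt+TNFα. The wt peak nearest the first start (chr8:94431451-94433978, 2528 bp, −log10 q 1.26) ended 378 bp upstream of it. The wt+TNFα peak (chr8:94407629-94434705, 27077 bp, fold enrichment 2.24, −log10 q 2.69) ran over the start to 349 bp beyond it, and all 462 bp of the H3K4me3 peak lay inside. Both marks on the same promoter bases were found at 5.07% of protein-coding genes in wt+TNFα and, of the 10 genes, at Nlrc5. In wt the background was 3.56%, and none of the 10 genes had them. The 2 marks were measured in separate libraries, so whether they sat on the same chromatin or in different cells was not tested.

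Over all Nlrc5 promoter windows together (12051 bp, 8 starts), H3K27me3 covered 4066 bp in wt and 10581 bp in wt+TNFα, with 6515 bp gained and none lost. The gain grows with the windows counted: it was 727 bp with 1 start per gene, 3515 bp with promoters of 500 bp on each side, 3211 bp with 1000 bp upstream only and 9972 bp with 2000 bp on each side. It was 0 bp with whole peaks subtracted, since each wt+TNFα peak there overlaps a wt peak. Over the gene body it covered 37.4% in wt, in 12 peaks, and 75.3% in wt+TNFα, in 7 peaks. The wt+TNFα H3K27me3 list was larger as a whole: it held 60540 peaks over 303 Mb, against 30594 peaks over 102 Mb in wt, a ratio of 2.97 in covered length. With the wt+TNFα list cut to its 30594 strongest peaks by −log10 q, the number in wt, the Nlrc5 gene was still covered over 75.3%. These peaks still spanned 245 Mb against 102 Mb in wt, so the cut did not make the covered lengths equal. The name of the wt+TNFα H3K27me3 file lacks the mention of a spike-in that the other 3 names carry, and its part in the difference was not tested.

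Ciita, the class II transactivator (ENSMUSG00000022504.10, plus strand, chr16:10480059-10528418), was under H3K27me3 in both conditions and had no H3K4me3 peak in either. In wt its promoters lay under 2 H3K27me3 peaks, chr16:10479889-10481711 (1823 bp, −log10 q 0.67) and chr16:10483373-10492041 (8669 bp, −log10 q 0.89), which covered 4882 of 5712 promoter bases. In wt+TNFα 1 peak of 13375 bp (chr16:10480180-10493554, −log10 q 2.07) covered 4591 bases. The 291 bp lost came from the upstream edge, which lay 170 bp before the gene start in wt and 121 bp after it in wt+TNFα. This loss was not counted with peaks above the median −log10 q, with a −log10 q of at least 2 or with whole-peak subtraction. Ciita was counted as a gain under the first 2 of these and, beside the loss, with promoters of 2000 bp on each side. The wt peaks covered all 8 starts, and the wt+TNFα peak covered 5 and began within 121 bp of the other 3. Over the gene body H3K27me3 covered more in wt+TNFα, 29.7% in wt and 56.9% in wt+TNFα, or 54.3% with equal numbers of peaks. The nearest H3K4me3 peak lay 52086 bp from a Ciita start in wt and 51887 bp in wt+TNFα.

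**Figure D5:**
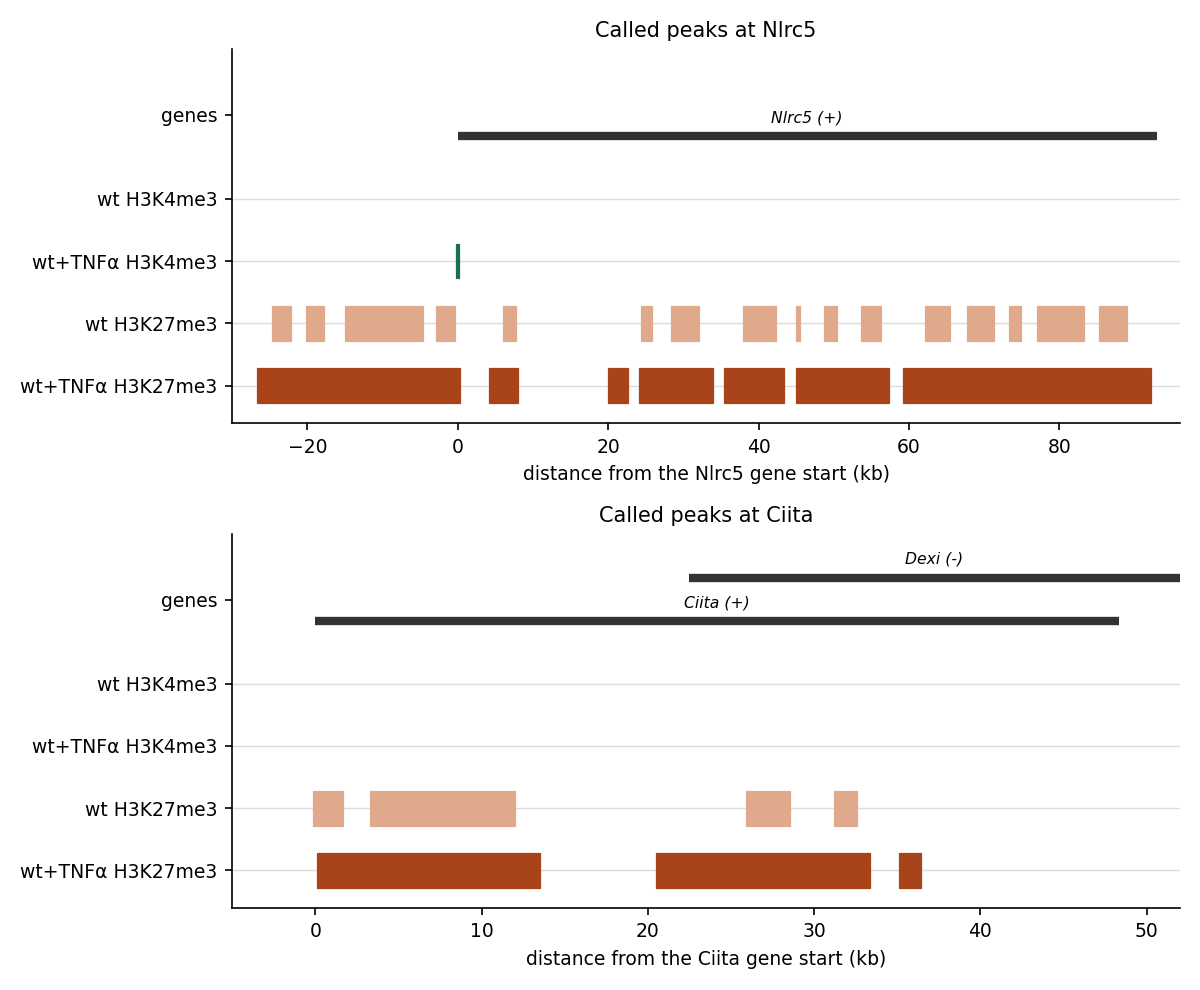
Called peaks of the 4 lists (boxes, 1 row per list) and gene bodies (bars, strand in brackets) at Nlrc5 above and Ciita below, with the distance from each gene start in kb on the horizontal axis. At Nlrc5 a wt+TNFα H3K4me3 peak of 462 bp lies at the start inside a wt+TNFα H3K27me3 peak of 27077 bp, and at Ciita H3K27me3 lies over the start region in both conditions with no H3K4me3 peak.

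Cd74, the class II invariant chain (ENSMUSG00000024610.15), had neither mark at its promoter in either condition. The nearest H3K4me3 peak lay 27748 bp away in wt and 27708 bp in wt+TNFα. The nearest H3K27me3 peak lay 6768 bp away in wt (383 bp wide, −log10 q 0.64) and 5983 bp in wt+TNFα (2156 bp wide, −log10 q 1.82). A missing peak does not show that a mark is absent: Psma7, a structural subunit of the constitutive proteasome, and Ifngr2, a chain of the interferon-γ receptor, also had no peak of either mark at the promoter in any list.

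The constitutive partners of the immunoproteasome subunits carried H3K4me3 in both conditions and no H3K27me3. Psmb5, the partner of Psmb8, had 1153 promoter bp under H3K4me3 in wt and 1180 bp in wt+TNFα. Psmb6, the partner of Psmb9, had 1213 and 1403 bp, and Psmb7, the partner of Psmb10, had 1218 and 1380 bp. Of 15 constitutive proteasome genes, 14 had H3K4me3 in both conditions, and their median difference was 47 bp, from -145 bp at Psma4 to 243 bp at Psma3. Bases were gained at 12 of the 15 and lost at 7, with some counted in both, against the 40.9% and 21.1% of all protein-coding genes given above, a background that includes genes with no H3K4me3 peak. Psmb11, the subunit of the thymus-specific proteasome, had 2001 promoter bp under H3K27me3 in both conditions and no H3K4me3.

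The other genes of peptide supply and loading likewise had H3K4me3 in both conditions. All 3 genes of the PA28 activator, which opens the proteasome, did so, with differences of 105 bp at Psme3, 147 bp at Psme1 and 151 bp at Psme2. All 7 genes of peptide trimming and loading did so, with a median difference of 59 bp that ran from -73 bp at the trimming peptidase Erap1 to 468 bp at the chaperone Calr. None of these 10 genes had H3K27me3 at the promoter.

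The 7 subunits of the factors that bind the conserved MHC promoter boxes (Rfx5, Rfxap, Rfxank, Nfya, Nfyb, Nfyc and Creb1) all had H3K4me3 in both conditions, with a median difference of -17 bp. Nfyc alone among them had H3K27me3 peaks in its promoter windows, 1312 bp in wt and 1566 bp in wt+TNFα. Of 12 interferon and NF-κB regulators, 11 had H3K4me3 in both conditions and none had H3K27me3. Irf1 went from 1730 to 1823 bp and Relb from 1953 to 2118 bp. Irf8, an interferon regulatory factor best known from myeloid and B cells, went the other way, from 3902 to 1641 bp of promoter H3K4me3.

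Of 9 genes of class II processing and loading, 5 had H3K4me3 in both conditions, of which Ctss, Ctsl, Lgmn and Ifi30 encode lysosomal enzymes. The other was H2-DMa, whose promoter windows held both marks in each condition, on different bases. H3K27me3 lay at H2-DMa, H2-DMb1, H2-DMb2 and H2-Ob in wt (4 of 9, background 21.7%). In wt+TNFα it lay also at H2-Oa (5 of 9, background 29.5%), under a peak with a −log10 q of 1.22. Of 6 MHC chain genes, the class I genes H2-K1, H2-D1 and H2-T23 had H3K4me3 in both conditions and no H3K27me3. Of the class II chains, H2-Ab1 had 7293 bp of H3K27me3 in both conditions. H2-Aa had 2047 bp in wt+TNFα alone, under a peak of 61417 bp that also covered H2-Ab1. H2-Eb1 had 491 bp of H3K4me3 and 542 bp of H3K27me3 in wt+TNFα and neither mark in wt. H3K27me3 was thus at 1 of the 6 chain genes in wt and at 3 in wt+TNFα, whose list covered 2.97 times the length of the wt list.

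Markers of other cell types were read in the same way. All 9 epithelial markers had promoter H3K4me3 in wt and 8 in wt+TNFα, with Krt20, a keratin of differentiated intestinal epithelium, marked over 441 bp in wt alone. None of 11 markers of immune and antigen-presenting cells and none of 7 stromal and endothelial markers had an H3K4me3 peak in either condition. H3K27me3 was at 7 of the 11 and 4 of the 7 in wt (background 21.7%). In wt+TNFα it was at 7 of the 11 and 5 of the 7 (background 29.5%), the added gene being Pecam1. Of these markers, 4 of the 11 and 2 of the 7 had no peak of either mark in any list. A missing peak does not show that a mark is absent, and whether other cell types were present was not tested.

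Each of these values rests on 1 library. The H3K4me3 peaks of Psmb8 and Nlrc5 were kept with shorter, longer and upstream promoters, with an overlap of at least 200 bp, with equal numbers of peaks and with whole-peak subtraction, and were not counted when the lists were cut to peaks above their median −log10 q. The gains at Tap1 and Psmb9 were not counted with promoters of 500 bp on each side, with an overlap of at least 200 bp, with peaks above the median −log10 q or with whole-peak subtraction. The gain at B2m and the losses at Tap2 and Psmb10 were not counted with an overlap of at least 200 bp or with whole-peak subtraction, nor was the gain at Tapbp with the latter.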

How the data were processed

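H3K4me3 and H3K27me3 ChIP-seq of wt and wt+TNFα organoids was read from 4 deposited peak lists, 1 per library, grouped by the sample titles. The inputs have no file of their own, and reads were not analysed here. Per the study's methods, the authors trimmed adapters with fastp, mapped to GRCm38/mm10, dropped duplicates and blacklisted regions, and called peaks over the input. The submitters' processing notes name BWA 2.2, SAMtools 1.11 and MACS2 2.1.0. In the deposited lists the authors give each peak a fold enrichment (ratio of ChIP signal to background), p-values and q-values as −log10, and an integer score that was not used. Fold enrichment and −log10 q were scaled per library, so they were used to rank peaks within a list. The exception is an alternative with 1 −log10 q minimum for both H3K27me3 lists, which keeps a larger share of wt+TNFα peaks, since their −log10 q has a median of 1.34 against 0.78 in wt.

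Coordinates were made 1-based. Peaks were laid over windows of 1000 bp on each side of all transcript starts (GENCODE mouse release 21, 141767 transcripts), with an overlap of at least 1 bp, and gained or lost bases were found by subtraction. The background is the same measure over 21924 protein-coding genes. Named genes are the 10 members, genes that share their windows or peaks, and examples from 11 gene lists (87 genes). Members and lists were chosen with earlier results of these data known. The alternatives were promoters of 500 or 2000 bp on each side or 1000 bp upstream only, 1 start per gene, an overlap of at least 200 bp, peaks above the median −log10 q, equal numbers of peaks, a −log10 q minimum of 2 for H3K27me3, and whole-peak subtraction. The gene-body coverage with equal numbers of peaks was added after seeing the data. Steps were tested on simulated peak lists. Python 3.11.15, numpy 2.4.6, pandas 2.3.3 and matplotlib 3.10.9 were used.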

Additional observations from a re-analysis of the deposited data

How the results depend on the processing

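Of the 8 counts of genes (peak present in either condition, gained or lost, for each mark), those not named here stayed within 1.5 times the reported value under each alternative, and the cause of the shifts was not tested except where an alternative's own construction gives it. With peaks above the median −log10 q alone, H3K4me3 was at 3 promoters in wt and 3 in wt+TNFα, 3 genes gained it (B2m, Tapbp and Psmb10, the last turning from a loss to a gain) and 1 lost it (Tap2), while 2 gained H3K27me3 and 0 lost it. With an overlap of at least 200 bp, 3 genes gained H3K4me3 (Tapbp, Psmb8 and Nlrc5) and 0 lost it. With whole peaks subtracted, so that edge shifts drop out, 2 gained H3K4me3 (Psmb8 and Nlrc5), 0 lost it, 0 gained H3K27me3 and 1 lost it (Psmb8). With H3K27me3 peaks of −log10 q of at least 2, 0 genes had the mark in wt, 2 gained it (Nlrc5 and Ciita) and 0 lost it. With promoters of 2000 bp on each side, 2 gained H3K27me3 (Nlrc5 and Ciita). No paired analysis was possible because each condition has 1 library per mark. The precision of a peak edge is unknown, since neither reads nor replicates were analysed here.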
